A study of Rattus norvegicus with 54 samples.

Results

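Cultures of rat cortical neurons were compared after 2 h in medium without magnesium and after 2 h in medium with magnesium. The comparison took every library labelled 2 h, which was 18 of the 54 libraries of the series: 9 without magnesium and 9 with it. The cultures came from cortex at embryonic day 18, and the labels call the medium without magnesium epileptic and the medium with magnesium standard. Each medium held 3 libraries of each of 3 constructs: non transfected cultures (Ctrl), cultures given AAV_SYN_GFP, and cultures given AAV_SYN_rMBD3_GFP, named GFP and rMBD3 hereafter. The 2 viral groups thus carried an adeno-associated virus in both media, and only the rMBD3 group carried rMBD3. Cultures were numbered 1 to 3 in the labels, so each library without magnesium had a partner of the same construct and culture number with magnesium, which gave 9 pairs. The labels name the cells as neurons and give no other cell type, no pooling and no time in culture. That label could not be checked against marker genes, because the count table lists genes by Ensembl identifier and 0 identifiers matched the symbol table used here.

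Magnesium ions sit in the pore of the NMDA-type glutamate receptor and block it near the resting potential. Medium without magnesium lifts that block, so that spontaneous glutamate release opens the receptors, calcium enters, and cultured networks fire in synchronised bursts. It is a common culture model of epileptiform activity. In neurons, activity of this kind is known to switch on immediate early genes within minutes to an hour and further genes over the following hours, so 2 h is an early time point. Those genes are known by symbol and were not analysed here by name.

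Total counts ran from 14448927 to 39691105 per library, with a median of 27279330.5. They averaged 26455011 without magnesium and 27617828 with magnesium (exact paired sign-flip test over 9 pairs, two-sided, p = 0.648). A count of 0 allowed a level of up to 0.0756 to 0.208 CPM, the usual scaling of counts to library size, taking 3 counts per library as the limit. Mitochondrially encoded genes took 1.86% of counts without and 1.93% with magnesium (exact paired p = 0.777). One library stood apart in that share: Ctrl culture 1 with magnesium had 3.42%, and the next highest library with magnesium had 1.90%. The construct labels were compared with the gene that differed most between rMBD3 and GFP, ENSRNOG00000028956 (chromosome 7, 9313098 to 9320165, plus strand, mRatBN7.2). This gene was chosen for that difference under the same labels, and its name is not given. Its level can show whether libraries group by label, but not which construct they carry. Its levels here are CPM on library sizes scaled by the trimmed mean of M values (TMM). The 6 rMBD3 libraries had 7201 to 18636 CPM of it, and no other library at 2 h had more than 197.9 CPM. By edgeR it was higher in rMBD3 than in GFP by 6.66 ± 0.20 on the log2 scale (SE; adjusted p = 1.49e-11). In rMBD3 cultures it stood at 13926 ± 5977 CPM without and 15187 ± 2511 CPM with magnesium (SD, n = 3 each; adjusted p for the medium = 1.0, edgeR), so no medium difference in this transcript was detected.

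At 2 h no gene passed the test for the medium. In an additive model with construct and culture number as blocks, 0 of 15705 genes (0%) had an adjusted p under 0.05, and the smallest adjusted p was 0.856 (edgeR quasi-likelihood test, Benjamini-Hochberg adjustment). At an unadjusted p under 0.05 there were 855 genes (5.44%), 394 higher (2.51%) and 461 lower (2.94%) without magnesium, where 785.25 would fall below that limit with no difference at all. DESeq2 on the same model had 1092 genes under the unadjusted limit and called 8 of 19406. Those 8 genes had 10 to 22 counts in total over the 18 libraries and no count in 15 to 17 of them, and the filter on low counts kept all 8 out of the edgeR test. Of the 15705 genes, 61 (0.388%) were higher without magnesium in 9 of 9 pairs and 46 (0.293%) were lower in 9 of 9. Some genes would have the same sign in 9 of 9 pairs with no difference at all, and these counts were not tested.

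**Figure D1:**
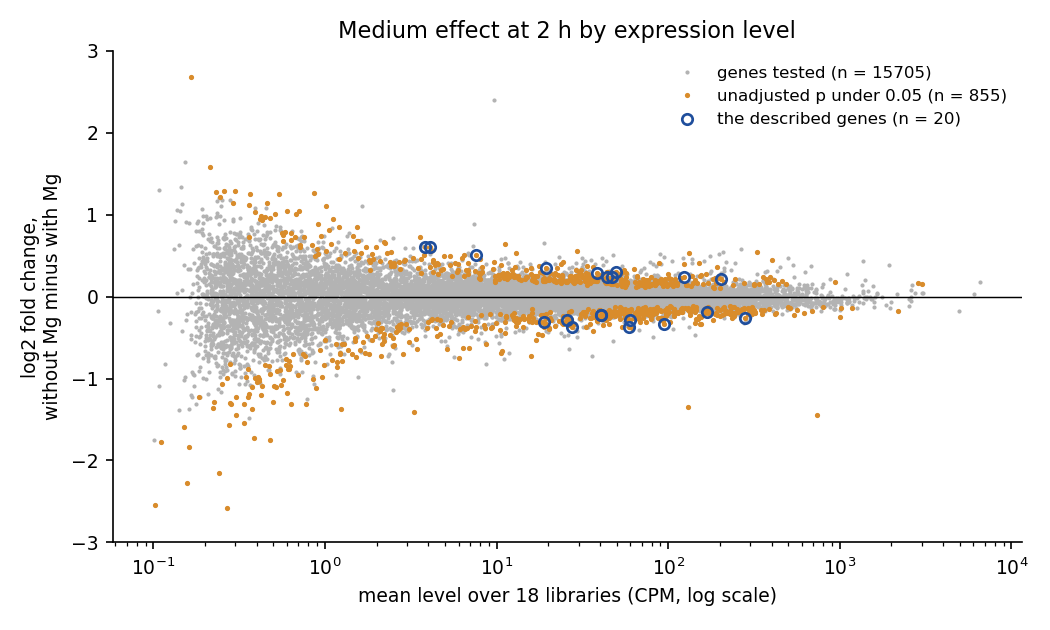
Each point is 1 of 15705 genes: its mean level over the 18 libraries at 2 h (CPM, log axis) against its log2 fold change, without magnesium minus with magnesium. Orange marks the 855 genes at an unadjusted p under 0.05 and blue rings mark the 20 genes described by rule. The cloud narrows as the level rises, and a pair of points with mean levels above 100 CPM lies far below it.

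The differences were small as well as not significant. The median log2 fold change was 0.01, the median size 0.09, and the middle 95% of genes lay between -0.53 and 0.47. For 13653 genes (86.9%) the 95% confidence interval lay wholly within a 2-fold change in either direction, and for 11508 (73.3%) within 1.5-fold. This depended on the level. Among the 2517 genes under 1 CPM, 27.8% had an interval within 2-fold, against 92.0% of genes at 1 to 4 CPM, 98.2% at 4 to 16 CPM and 99.5% above 64 CPM. For the other genes under 1 CPM the interval reached past a 2-fold difference, so a difference of that size lay within it. For nearly all genes above 4 CPM it lay outside. Each interval covers 1 gene, with no adjustment for the number of genes.

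The libraries differed far more by culture and construct than by medium. Over the 12234 genes with a mean log2 CPM of at least 1, culture number took 38.6% of the total variance of log2 CPM, construct 21.4% and medium 3.50%. Culture number and construct had 2 degrees of freedom each and medium had 1. An even split would give each degree of freedom 5.88%. The first principal component held 45.2% of the variance. Culture number accounted for 73.0% of the scores on it, and medium for 0.46%. The second held 15.8%, and there construct accounted for 54.4% and medium for 6.09%. Differences between media were not shared by the pairs as a whole: the 36 correlations across genes between the differences of 2 pairs ran from -0.39 to 0.40, with a median of 0.01. Genes are not independent replicates, and these correlations are a description.

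**Figure D2:**
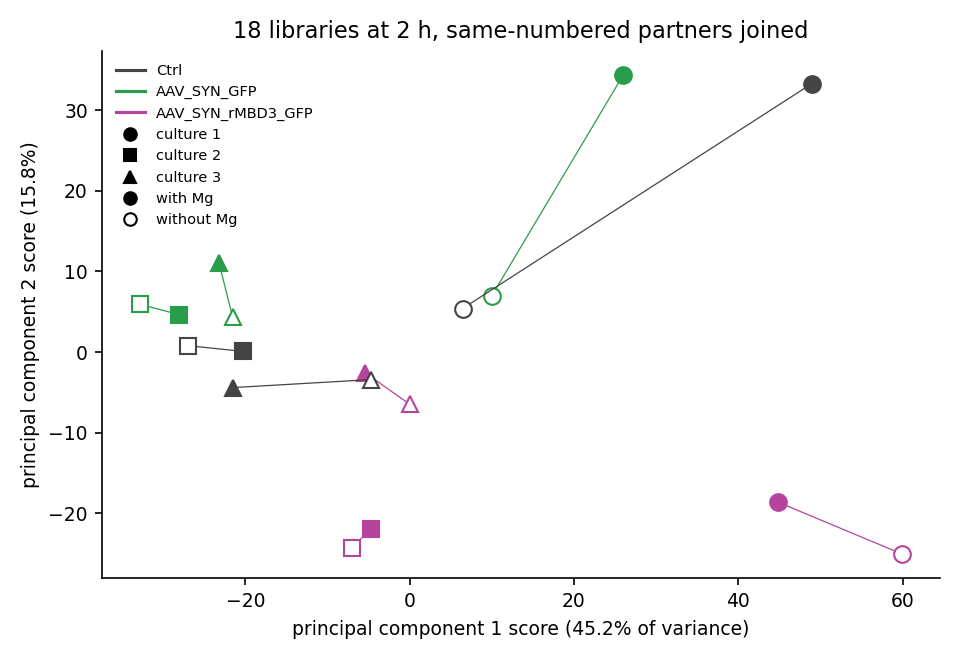
Scores of the 18 libraries on the first and second principal components (percent of variance on each axis); colour gives the construct, shape the culture number, filled symbols the medium with magnesium and open symbols the medium without. Lines join same-numbered partners. Culture 1 lies to the right in every construct, and the longest lines belong to culture 1 of Ctrl and GFP.

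Since no gene passed, the 10 genes in each direction with the smallest unadjusted p, a mean log2 CPM of at least 1 and the same sign in at least 8 of 9 pairs are described, with no test. The 2 of each direction with the smallest p are given by identifier. Levels of these 4 genes are CPM on library sizes scaled by the trimmed mean of M values (TMM).

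ENSRNOG00000025701 (chromosome 13, 29393286 to 29405896) had 35.3, 42.9 and 49.6 CPM without magnesium as its lowest, median and highest of 9 libraries, and 29.1, 35.9 and 39.4 CPM with magnesium. The ranges overlapped, but the partner without magnesium was the higher in 9 of 9 pairs. The means were 42.5 ± 4.02 and 34.8 ± 3.67 CPM (SD, n = 9 each), and the log2 fold change was 0.29 ± 0.07 (SE; unadjusted p = 0.0005, adjusted p = 0.856, edgeR). Its pair differences spread from 0.05 in Ctrl culture 3 to 0.52 in Ctrl culture 1 on the log2 scale.

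ENSRNOG00000021264 (chromosome 3, 119498810 to 119502995) had 45.8, 53.2 and 67.1 CPM without magnesium and 38.5, 42.9 and 54.99 CPM with it. The highest library with magnesium was rMBD3 culture 1, the 1 pair in which the partner without magnesium was the lower. The means were 54.5 ± 6.06 and 44.5 ± 4.79 CPM (SD, n = 9 each), with a log2 fold change of 0.30 ± 0.08 (SE; unadjusted p = 0.000907, adjusted p = 0.856, edgeR).

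Among the lower genes, ENSRNOG00000016998 (chromosome 17, 18737533 to 19142360) was the one with the smallest unadjusted p of all 15705. Its mean was 24.1 ± 4.15 CPM without and 30.97 ± 5.88 CPM with magnesium (SD, n = 9 each), and it was lower in 9 of 9 pairs. The log2 fold change was -0.37 ± 0.08 (SE; unadjusted p = 0.000375, adjusted p = 0.856, edgeR). Construct and culture also showed in its level: rMBD3 culture 1 had the lowest value in each medium, at 16.7 CPM without and 19.3 CPM with magnesium. ENSRNOG00000053203 (chromosome 4, 154153834 to 154302590) stood at 83.7 ± 8.14 CPM without and 106.2 ± 14.7 CPM with magnesium (SD, n = 9 each). It was lower in 8 of 9 pairs, with a log2 fold change of -0.34 ± 0.08 (SE; unadjusted p = 0.000412, adjusted p = 0.856, edgeR). The exception was again rMBD3 culture 1, with 89.5 CPM without and 79.8 CPM with magnesium.

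**Figure D3:**
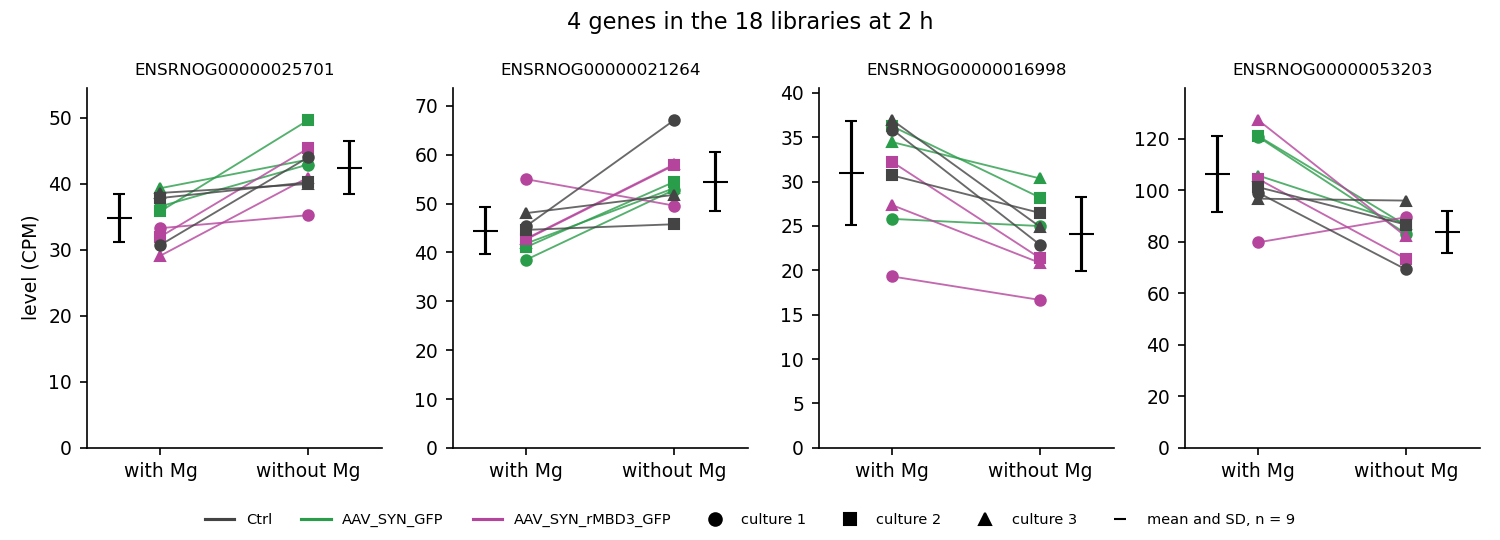
Level in CPM of the 4 genes given by identifier in each of the 18 libraries at 2 h, with lines joining same-numbered partners; colour gives the construct, shape the culture number, and the black bars the mean and SD of 9 libraries. Lines run upward for the pair of genes on the left and downward for the pair on the right, apart from rMBD3 culture 1 in ENSRNOG00000021264 and ENSRNOG00000053203.

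The whole set of 20 behaved alike in size and over constructs. The 10 higher genes had log2 fold changes of 0.21 to 0.61 and the 10 lower genes of -0.37 to -0.19, all with an adjusted p of 0.856 (edgeR). Each of the 20 kept its sign in all 3 constructs, a feature that the rule on pairs nearly fixes. In the libraries at 6 h, which the rule did not use, 10 of 10 higher genes and 10 of 10 lower genes had the same sign again, and at 24 h 8 of 10 and 9 of 10 did. Of all genes 53.4% lay below 0 at 6 h, as did 66.1% of those of 100 to 500 kb, the class that held 9 of the 10 lower genes. Among all 17172 genes of the fit over 3 time points, 1186 (6.91%) were called at 24 h, 1053 of them lower (6.13%) and 133 higher (0.775%). Of the 10 genes lower at 2 h, 6 were among those 1053, and 0 of the 10 higher genes were called. The lower genes also covered more of the genome: 9 of 10 spanned over 100 kb from first to last exon (78919 to 478764 bases). Of the 10 higher genes 0 did (3301 to 93120 bases). Among all 15705 genes tested at 2 h 13.97% spanned over 100 kb, so 0 of 10 is not far from that share.

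Among the 12234 genes with a mean log2 CPM of at least 1, 2 differed by more than 2-fold in the fit. With a mean of at least 2 CPM over the 18 libraries there were 5, chosen after their values were seen, of which 3 passed that mean through 1 high library and had medians of 0.123 to 1.04 CPM in each medium. Levels here are CPM of the total count. A pair of them lay side by side on 1 unplaced scaffold, on the minus strand, as unspliced models of 1872 and 4801 bases (67995 to 69866 and 61191 to 65991). These lengths resemble those of the small and large ribosomal RNA genes, but the files do not name the models. Whether their counts are ribosomal RNA left in the mRNA libraries was not tested. The shorter model had a median of 267.2 CPM without magnesium (184.2 to 1301) and 1258 CPM with it (260.1 to 1875). It was lower without magnesium in 9 of 9 pairs, with a log2 fold change of -1.44 ± 0.44 (SE; unadjusted p = 0.00596, adjusted p = 0.856, edgeR). The size of the difference varied widely: the partner with magnesium was 3.93, 7.54 and 10.2 times higher in the 3 GFP pairs and 6.73 times in rMBD3 culture 3, and between 1.02 and 2.47 times in the other pairs. Without the GFP construct the log2 fold change was -0.78.

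The longer model followed the same libraries, with a median of 59.2 CPM without and 239.1 CPM with magnesium, lower in 7 of 9 pairs. Its log2 fold change was -1.35 ± 0.47 (SE; unadjusted p = 0.0132, adjusted p = 0.856, edgeR), and -0.59 without the GFP construct. Together the models took 0.0315% to 0.213% of a library's counts with magnesium and 0.0218% to 0.151% without. Their part in the scaling of other genes was not tested. At 6 h and 24 h the medium difference was not seen: the shorter model had log2 fold changes of 0.29 ± 0.36 and 0.42 ± 0.34, and the longer of -0.03 ± 0.30 and 0.35 ± 0.30 (SE; fit over 54 libraries). The files' counting used primary alignments, and how reads from near-identical copies were shared among models was not tested.

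In the remaining 3 of the 5, 1 library stood far above the others. One model (chromosome 3, 2235683 to 2240483), also of 4801 bases, had 151.2 CPM in rMBD3 culture 1 without magnesium and at most 1.93 CPM in the other 17 libraries. Its log2 fold change of 2.40 became -0.82 without that library. Genes on chromosome 10 (99826132 to 99832624) and chromosome 5 (16639466 to 16756868) had 40.9 and 25.2 CPM in Ctrl culture 1 with magnesium, and at most 2.32 and 4.09 CPM elsewhere. Without that library their log2 fold changes went from -1.41 to -0.44 and from -1.14 to -0.67. The chromosome 5 gene was lower without magnesium in 8 of 9 pairs, by more than 2-fold in 4 of them, and the chromosome 10 gene in 6 of 9, by more than 2-fold in 2 (unadjusted p = 0.0591 and 0.0481, both with an adjusted p of 0.856, edgeR). It is the library whose mitochondrial share stood apart, and what sets it apart was not tested.

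A pattern over many genes was visible at 2 h although no single gene passed: the longer the stretch of genome a gene covered, the lower it tended to lie without magnesium. The classes of span were set after seeing the data, and no test is given for them. The median log2 fold change was 0.03 for the 4616 genes of up to 10 kb, 0.02 for the 6789 of 10 to 50 kb, -0.01 for the 2106 of 50 to 100 kb and -0.06 for the 1993 of 100 to 500 kb. For the 201 genes over 500 kb it was -0.13, and 83.1% of them lay below 0, against 47.2% of all genes. Of the genes of 100 to 500 kb, 172 were lower and 10 higher at an unadjusted p under 0.05, and of those over 500 kb 27 were lower and 0 higher. Genes of up to 10 kb went the other way, with 80 lower and 144 higher. In all, 43.2% of the 461 genes lower at the unadjusted limit spanned over 100 kb and 2.54% of the 394 higher ones did, beside 13.97% of all genes tested. In neurons, genes of great span are often those for adhesion molecules, ion channels and synaptic scaffolds. Which genes these were by name was not analysed here.

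The pairs shared the direction of this pattern more than its size. The median difference of genes over 500 kb minus that of genes up to 10 kb was below 0 in 9 of 9 pairs, from -0.42 in Ctrl culture 1 to -0.0015 in GFP culture 1, with a median of -0.11. Ctrl culture 3 was next at -0.33, and the other pairs lay between -0.16 and -0.04. Fitted by construct, the median for genes over 500 kb was -0.21 in Ctrl, -0.07 in GFP and -0.06 in rMBD3. The steady order by span was not seen in GFP, where the medians were -0.01 for genes of up to 10 kb, 0.03 for 10 to 50 kb, 0.05 for 50 to 100 kb and -0.01 for 100 to 500 kb. Genes of 100 to 500 kb at an unadjusted p under 0.05 were 219 lower and 9 higher in Ctrl, 52 and 30 in GFP, and 21 and 12 in rMBD3. A difference between constructs was not tested for these medians. Without the Ctrl culture 1 library with magnesium, the median of genes over 500 kb was -0.08, that of 100 to 500 kb -0.04 and that of up to 10 kb 0.01. The order of these classes thus remained at a smaller size. The classes between 10 and 100 kb were not looked at without that library. Over 5 ranges of level, genes over 100 kb had medians of -0.09 to -0.05, and genes of up to 100 kb of -0.01 to 0.03. The share of genes over 100 kb below 0 was 58.4% under 1 CPM and 81.9% above 64 CPM. For genes of up to 100 kb it was 50.8% and 46.4%. The part of level in the pattern was not tested. Medians also fell with exonic length. Among genes over 100 kb they went from -0.03 at 1 to 2 kb of exon to -0.09 over 8 kb. The 9 such genes with up to 1 kb of exon had a median of 0.0034. Among genes of up to 100 kb the medians went from 0.04 at up to 1 kb of exon to -0.0025 over 8 kb. At each exonic length genes over 100 kb had the lower median. The parts of span and exonic length were not tested. RNA integrity was not measured in these files, and its part in the pattern was not tested. The scaffold models differed most in level between media in GFP. In Ctrl culture 1 they took 0.0343% of counts without and 0.0762% with magnesium. In Ctrl culture 3 they took 0.0295% and 0.0315%. These were the pairs with the widest gaps by span, and any link between scaffold share and gap was not tested.

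**Figure D4:**
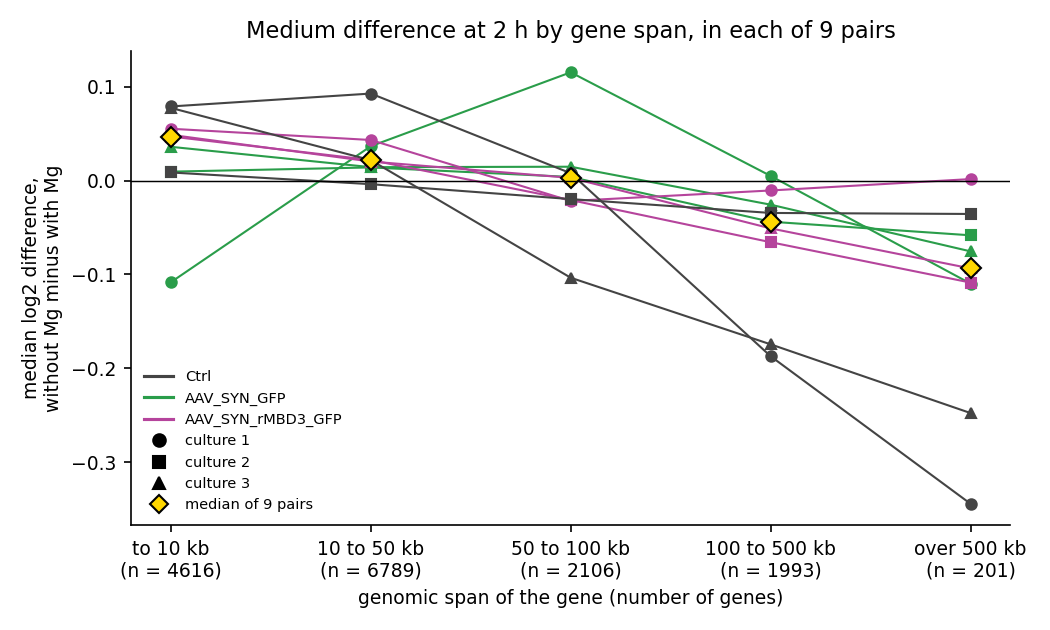
Median log2 difference in level, without magnesium minus with magnesium, of the genes in 5 classes of genomic span (number of genes under each class); each line is 1 of 9 same-numbered pairs, colour gives the construct and shape the culture number, and gold diamonds give the median of the 9 pairs. In the class over 500 kb 8 of 9 pairs lie below 0, and in the class of up to 10 kb 1 of 9 does.

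At the later time points genes over 500 kb again had the lowest median. At 6 h it was -0.18, and the class medians fell in the same order as at 2 h. At 24 h the order differed: the medians were -0.03 for genes of up to 10 kb, 0.03 for 10 to 50 kb, 0.03 for 50 to 100 kb, -0.06 for 100 to 500 kb and -0.38 over 500 kb, so the shortest genes lay below the next 2 classes. The gap between genes over 500 kb and genes of up to 10 kb was below 0 in 7 of 9 pairs at 6 h (median -0.16) and in 8 of 9 at 24 h (median -0.33). At 24 h 27.5% of the genes over 500 kb were called lower without magnesium, beside 4.83% of genes of up to 10 kb and 6.13% of all genes tested.

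The genes that were called lower without magnesium at 24 h were looked at in the 2 h libraries, which shared no library with the 24 h ones. The list came from the fit over all 54 libraries, so the 2 h libraries entered its filter and its estimate of spread. Culture numbers 1 to 3 recur at each time point. Whether differences between same-numbered cultures recur with them was not tested. Of the 1053 genes on the list 1039 were tested at 2 h, and 80.9% of them lay below 0, beside 47.2% of all genes. Their median log2 fold change was -0.08 at 2 h, -0.15 at 6 h and -0.83 at 24 h, and 0.01 for all genes at 2 h. None was called at 2 h. At an unadjusted p under 0.05, 112 (10.8%) were lower and 9 higher in the fit on the 18 libraries, beside 2.94% of all genes lower. In the fit over 54 libraries that made the list, 11 of the 1053 (1.04%) were lower and 0 higher at 2 h, beside 0.844% of all genes lower. Both parts of the list by span showed it: 76.7% of its 739 genes of up to 100 kb and 91.3% of its 300 genes over 100 kb lay below 0. Of the genes on neither 24 h list, 41.4% of those of up to 100 kb and 68.1% of those over 100 kb did. Read the other way, 24.3% of the 461 genes lower at the unadjusted limit at 2 h were called lower at 24 h, and 2.28% of the 394 higher ones were, beside 6.62% of all genes tested at 2 h. The 133 genes higher at 24 h had a median of 0.04 at 2 h.

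This second pattern was uneven over cultures. The median of the 24 h list was below 0 in 7 of 9 pairs at 2 h and below the median of all genes in 6 of 9. It ran from -0.38 in GFP culture 1 and -0.23 in Ctrl culture 1 to 0.06 in rMBD3 culture 1 and 0.08 in Ctrl culture 3. Without the GFP construct the median at 2 h was -0.03 and 63.8% of the list lay below 0, and without culture 1 the median was -0.04. The list itself depended on the cultures and the model. Without culture 3 the 24 h comparison called 3 genes in place of 1186, without culture 1 791 and without culture 2 659, and 0 with no replicate block. The lists made without culture 1 and without culture 2 had medians at 2 h of -0.05 and -0.12.

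**Figure D5:**
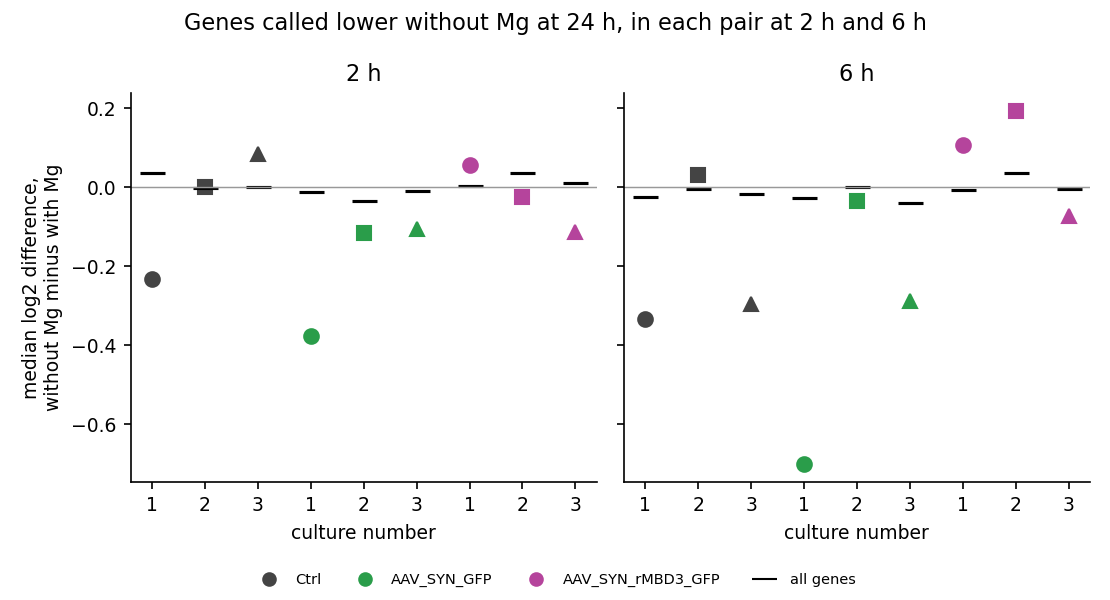
Median log2 difference, without magnesium minus with magnesium, of the genes called lower without magnesium at 24 h, in each same-numbered pair at 2 h (left) and 6 h (right); colour gives the construct and black bars the median of all genes in that pair. At 2 h 7 of 9 pairs lie below 0 and at 6 h 6 of 9, with the lowest values in GFP culture 1.

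The medium was also tested within each construct at 2 h, where 3 pairs stood behind each value. In each construct 0 of 15705 genes (0%) passed (edgeR), with 960 genes in Ctrl, 552 in GFP and 367 in rMBD3 at an unadjusted p under 0.05 and smallest adjusted p-values of 0.807, 0.538 and 1.0. With no difference at all, 785.25 genes would fall below the unadjusted limit in each construct, and only Ctrl had more. Of 19406 genes, DESeq2 called 12 in Ctrl, 7 in GFP and 0 in rMBD3. That run kept every gene with at least 10 counts in total, and the counts of the called genes were not examined. In Ctrl 654 of the 960 were lower without magnesium and 306 higher, whereas GFP had 279 and 273 and rMBD3 163 and 204. Whether the medium effect differed between constructs was tested directly, and 0 genes (0%) passed the joint test (408 at an unadjusted p under 0.05, smallest adjusted p = 0.982, edgeR). Nor did any pass for GFP minus Ctrl (582 unadjusted) or for rMBD3 minus GFP (297 unadjusted). The unadjusted counts of the joint test and of both differences lay below the 785.25 given by no difference at all. The 95% interval of the effect lay within 2-fold for 71.9% of genes in Ctrl, 73.2% in GFP and 74.8% in rMBD3.

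Against later times, 0 of 17172 genes (0%) had a medium effect at 6 h that differed from that at 2 h (192 at an unadjusted p under 0.05, edgeR). None differed at 24 h from 2 h either, although 1628 genes were under the unadjusted limit, 1263 of them with the lower effect at 24 h, and the smallest adjusted p was 0.241 (edgeR). So the 1186 calls at 24 h and the 0 calls at 2 h were not shown, gene by gene, to be different effects. At 6 h the medium had 0 calls and 806 genes at an unadjusted p under 0.05 (edgeR). With no difference at all, 858.6 of the 17172 genes would fall below that limit. The counts of 192 and 806 lay below this number and that of 1628 above it.

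Genes of the mitochondrial genome and genes grouped by chromosome were described in the same way. The 21 mitochondrial genes had a median log2 fold change of -0.10 at 2 h, with pair medians from -1.19 in Ctrl culture 1 to 0.46 in rMBD3 culture 3, so the pairs went both ways. Over 21 chromosomes, 1 to 20 and X, the median lay between -0.0018 (chromosome 18) and 0.02 (chromosome 20). The 4 genes tested on chromosome Y had a median of -0.05.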

How the data were processed

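Read pairs per gene were taken from the count table the authors deposited; per the file headers it was made with featureCounts 2.0.0, strand setting 2, a minimum mapping quality of 3 and primary alignments, on the Ensembl release 105 annotation of mRatBN7.2. The labels' protocol names STAR, rn6 and a stranded mRNA kit, and the submitters' processing notes name Trim Galore, Salmon, SAMtools and DESeq2 and mRatBN7.2; aligner settings are not given in the sources used here. Coordinates are those of the count table. A table of log2 values deposited by the authors was not used here.

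Counts were tested with edgeR 4.0.16 (R 4.3.3): TMM scaling, filterByExpr at 10 counts, quasi-likelihood test, Benjamini-Hochberg threshold 0.05. The effect of the medium was fitted on the 18 libraries at 2 h with construct and culture number as additive terms; effects by construct used group means with a culture block, and times were compared over 54 libraries with a block per time point and culture. Alternatives were DESeq2 1.42.0, other scaling and filters, no block, and leaving out cultures, libraries and constructs; steps were tested on simulated data. Intervals cover the spread between these samples. Culture numbers come from the labels, which call them biological replicates of the cell culture; same-numbered partners deviated together (correlation 0.00 in Ctrl culture 3, 0.44 to 0.76 in the other 8 pairs), so the block was kept. Whether numbered cultures came from separate animals is not stated, and p-values measure the spread between these samples. Replicates within each group differed beyond counting noise (chi-square per gene 9.76 to 192 over 18 comparisons).

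The comparison, the lists and the genes named were chosen with earlier results of these data known. Genes were named by the smallest unadjusted p, since none passed, with at most 2 identifiers per direction. The files do not pair identifiers with names, and 0 of 30560 matched the GRCr8 gene table, so planned gene lists, cell type markers, named activity genes and sequences were not analysed here.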

Additional observations from a re-analysis of the deposited data

Results flagged for a closer look

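Within a group of 9 libraries a value was singled out when its gap to the nearest other library exceeded a fixed share of the whole range (Dixon's 95% limit), which chance alone does in about 1 in 20 groups. Ctrl culture 1 with magnesium was singled out 3 times among libraries with magnesium: for its mitochondrial share of 3.42%, and for levels of 40.9 CPM of the chromosome 10 gene and 25.2 CPM of the chromosome 5 gene described in the report. Culture 1 of rMBD3 without magnesium was singled out 4 times among libraries without magnesium. It had 1301 CPM of the shorter and 210.4 CPM of the longer scaffold model, 151.2 CPM of the chromosome 3 model of 4801 bases, and 2.43 CPM of the chromosome 5 gene. The chromosome 3 model also stood out in GFP culture 2 with magnesium, at 1.93 CPM. These genes were picked for large differences, so single high libraries are over-represented among them.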

How the results depend on the processing

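The 0 calls for the medium at 2 h stayed at 0 in 29 of 30 alternatives and became 8 with DESeq2. With DESeq2 the calls became 12 in Ctrl and 7 in GFP of 19406 genes, from 0 in each, and the counts of these genes were not examined. Leaving out cultures, single libraries or a construct gave 0 calls each time. With no replicate block the medium at 2 h had 0 calls and 472 genes at an unadjusted p under 0.05 in place of 855; the block changed no call at 2 h or 6 h. The 1186 calls at 24 h became 0 with no replicate block, 36 with a replicate block shared over time, and 3 to 791 without 1 culture. The cause of these moves was not tested. The count at the unadjusted limit ran from 311 without the GFP construct to 1357 without rMBD3 culture 1 with magnesium. Only the chromosome 3 model changed direction, to -0.82 without rMBD3 culture 1 without magnesium and to -0.63 without culture 1, and it ran up to 4.30 without other libraries; both leave out its 1 high library. The 4 genes given by identifier kept their direction in all 30 alternatives, with adjusted p from 0.0661 to 1.0 over DESeq2 and edgeR. The medians of the span classes over 100 kb and of the 24 h list, alternatives added after seeing the data, stayed below 0 throughout: -0.16 to -0.08 over 500 kb, -0.09 to -0.04 for 100 to 500 kb and -0.12 to -0.03 for the list. Under 1 CPM, 27.8% of genes had an interval within 2-fold.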
